A study of Mus musculus with 16 samples.

Results

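Sprr1a, Casp14, Gsdmc2 and Gsdmc4 were followed across the colon of germ-free mice and of mice given bacteria. They are 4 genes among the 1964 symbols that could be given to array features of the whole value table and the 1793 genes of a smaller gene-level table. They were chosen on their measured values in these arrays, so their levels and differences are a description and carry no test. Sprr1a and Casp14 were found by symbol in the authors' comparison table and read from the value table, with the brightest row per symbol. Gsdmc2 and Gsdmc4 were found in the gene-level table.

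All mice were Swiss Webster and germ-free at the outset. The UCC2003 group was colonised with the parent Bifidobacterium strain UCC2003 alone, and the TadA mutant group with a strain carrying a mutant of the bacterial gene TadA. The GF group stayed germ-free and the CONV group was re-conventionalised, meaning that it was given a complex microbiota. The labels give no age, sex, litter, cage or length of colonisation. Each group had 4 arrays, labelled as biological replicates; for CONV the design text gives n = 5 and 4 arrays are analysed here. RNA of the whole colon was hybridised to Affymetrix Mouse Exon ST 1.0 arrays.

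Small proline-rich proteins such as SPRR1A are cross-linked beneath the plasma membrane of squamous cells into the cornified envelope, the protein shell of the outer skin, and Sprr genes are also known to be induced in stressed or microbe-exposed gut epithelium. Caspase-14, encoded by Casp14, is a caspase of terminally differentiating keratinocytes, where it takes part in the processing of filaggrin. Gasdermins are proteins whose amino-terminal part, once released by cleavage, forms pores in membranes. The mouse gasdermin C genes are expressed in intestinal epithelium and are known to respond to type 2 cytokines.

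The promoters of Sprr1a and Casp14 are shown because these genes had the largest group differences of the 4 and went in opposite directions. Both windows run from 250 bases before to 50 bases after the start of the gene, on the minus strand, in RefSeq's GRCm38.p6 annotation: chr3:92485832-92486131 for Sprr1a and chr10:78718244-78718543 for Casp14. Both strands were searched for 3 motifs, and capitals mark the matches. The first is the AP-1 site, bound by Fos and Jun dimers and spelled TGANTCA here. The second is the box that sets the start of transcription in many tissue-restricted genes, spelled TATAAA. The last is the STAT site, a target of cytokine signalling through STAT factors, spelled TTCNNNGAA.
Sprr1a promoter: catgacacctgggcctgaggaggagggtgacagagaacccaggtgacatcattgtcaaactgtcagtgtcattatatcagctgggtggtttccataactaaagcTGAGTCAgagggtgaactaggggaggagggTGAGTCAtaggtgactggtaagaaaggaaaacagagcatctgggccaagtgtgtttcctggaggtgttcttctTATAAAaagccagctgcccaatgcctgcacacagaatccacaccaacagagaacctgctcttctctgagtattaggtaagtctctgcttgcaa
Casp14 promoter: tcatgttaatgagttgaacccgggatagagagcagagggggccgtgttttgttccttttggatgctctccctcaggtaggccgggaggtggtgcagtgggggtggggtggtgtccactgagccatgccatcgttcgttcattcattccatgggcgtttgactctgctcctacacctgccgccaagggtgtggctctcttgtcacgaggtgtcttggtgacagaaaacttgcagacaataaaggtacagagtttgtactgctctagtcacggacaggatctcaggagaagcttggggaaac
The Sprr1a window held 2 AP-1 matches, starting at positions -146 and -116 from the gene start, and 1 TATA box match at -43, with 0 STAT matches. The Casp14 window held 0 matches to each of the 3 motifs. Of 32851 promoters of the same length, 7.81% held at least 1 AP-1 match, 0.460% held 2 or more, 13.6% held a TATA box match and 8.30% held a STAT match. The 3 motifs did not overlap one another in these windows. Of 7 Sprr genes with a measured level and a promoter, 5 held an AP-1 match, namely Sprr1a, Sprr2b, Sprr2d, Sprr2e and Sprr2k, while Sprr3 and Sprr4 held none. These matches are a description of the letters and no binding was measured.

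The value table held log2 intensities for 23332 transcript clusters, the probe groups that the array reads as 1 transcript. Array medians lay between 5.91 and 6.03 and pairwise correlations between 0.938 and 0.979, and the number of arrays limits the precision. The mean of the colon epithelium markers Krt20, Phgr1, Slc26a2 and Tff3, 4 of the 24 markers listed, was between 11.13 and 11.52 in every array, although single markers differed. Pancreatic transcripts were also present, with Cpa1, a pancreatic carboxypeptidase, above 10 log2 units in 8 of 16 arrays: UCC2003 replicates 1 and 3, TadA mutant replicate 2, GF replicates 2, 3 and 4, and CONV replicates 2 and 4. Arrays with pancreatic transcripts are those above this cut. Below it, TadA mutant replicate 4 read 7.49, while the rest lay between 4.39 and 5.35. Sycn, another pancreas marker, was at least 11.88 in every array. The arrays below the cut are thus not shown to be free of pancreatic signal.

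Sprr1a was several-fold higher in CONV colon than in the other 3 groups, and the single-strain groups were close to GF. The GF arrays read 6.83, 6.84, 7.02 and 6.95 log2 units in replicates 1 to 4. The UCC2003 arrays read 6.92, 6.23, 6.24 and 6.97, and the TadA mutant arrays 6.53, 7.89, 6.46 and 6.83. The CONV arrays read 8.87, 10.39, 9.54 and 9.38. The lowest CONV array was thus above the highest array of any other group, and that array, TadA mutant replicate 2, stood above the other TadA mutant arrays. GF varied least, with a range of 0.19 log2 units. The range was 0.75 for the UCC2003 arrays, 1.43 for the TadA mutant arrays and 1.52 for the CONV arrays.

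**Figure D1:**
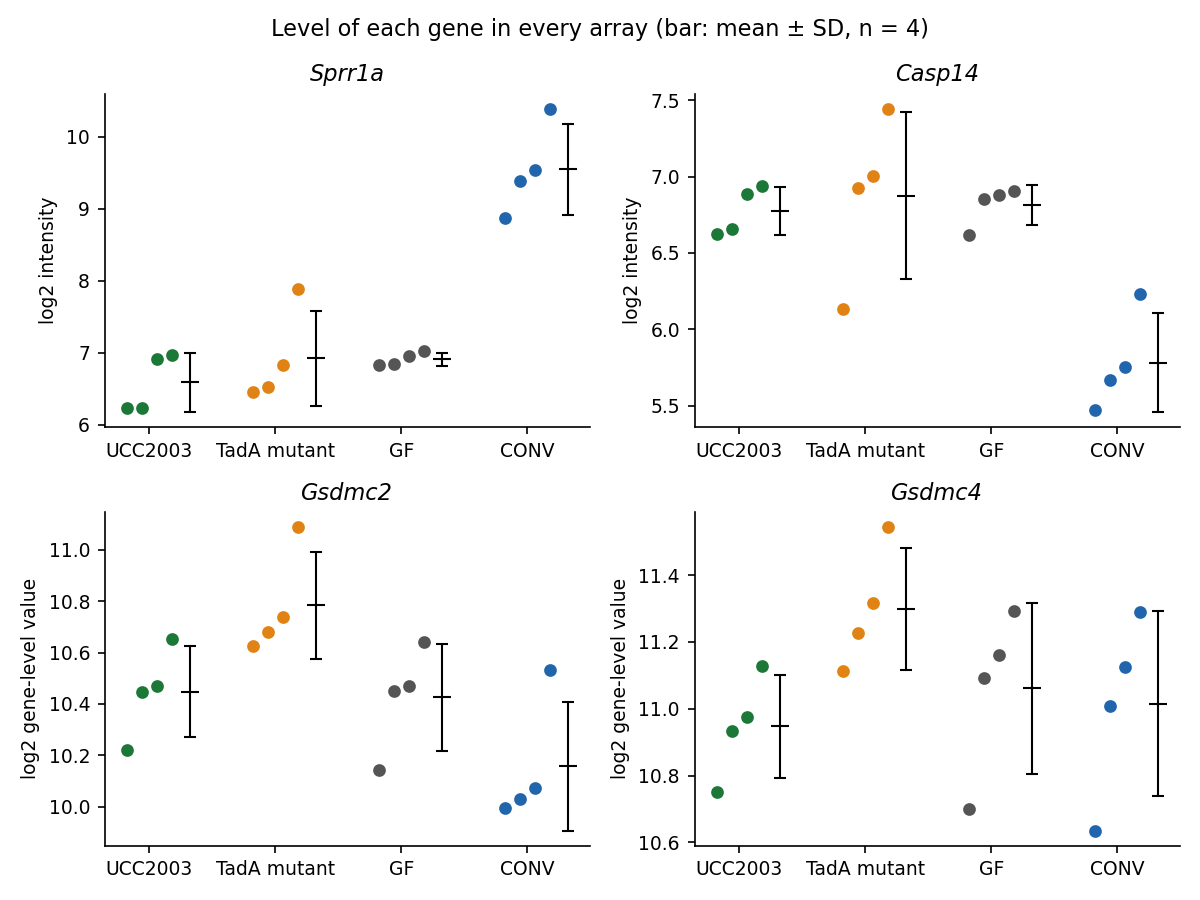
Log2 level of Sprr1a, Casp14, Gsdmc2 and Gsdmc4 (vertical axes, different scales) in each of the 16 arrays by group, with points in order of value and bars for the mean ± SD of 4 arrays. The CONV points for Sprr1a lie between 8.87 and 10.39, above all others, and those for Casp14 between 5.47 and 6.23, near the lowest TadA mutant point at 6.13.

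The mean Sprr1a level was 9.55 ± 0.63 in CONV, 6.91 ± 0.09 in GF, 6.93 ± 0.66 in TadA mutant and 6.59 ± 0.41 in UCC2003 (log2 units, SD, n = 4). CONV stood 2.64 ± 0.33 log2 units above GF (SE), which is 6.22-fold. It stood 2.96 ± 0.33 above UCC2003, or 7.76-fold, and 2.62 ± 0.33 above TadA mutant, or 6.15-fold. The other groups differed by less, with UCC2003 minus GF at -0.32 ± 0.33, TadA mutant minus GF at 0.02 ± 0.33 and UCC2003 minus TadA mutant at -0.34 ± 0.33. In the order of the means, UCC2003, GF and TadA mutant overlapped with their neighbours and only the step from TadA mutant to CONV was free of overlap. The authors' deposited table gives Sprr1a a CONV over GF fold of 6.69, with folds of 6.51 over TadA mutant and 8.17 over UCC2003. In whole colon RNA, a change in the number of cells that hold a transcript and a change in the amount per cell cannot be told apart.

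Casp14 had the opposite pattern and was about 1 log2 unit lower in CONV than in the other groups. The GF arrays read 6.88, 6.86, 6.90 and 6.62 log2 units. The UCC2003 arrays read 6.89, 6.94, 6.65 and 6.63, and the TadA mutant arrays 6.92, 6.13, 7.44 and 7.003. The CONV arrays read 6.23, 5.67, 5.47 and 5.75. CONV replicates 2, 3 and 4 and the CONV mean of 5.78 lay below the lowest array median of 5.91. Casp14 was thus dim in CONV, where the signal was not shown to be above background, and the size of the difference is uncertain. All CONV arrays lay below every GF and UCC2003 array, while TadA mutant replicate 2 at 6.13 lay below CONV replicate 1 at 6.23, so that these groups overlapped.

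The mean Casp14 level was 5.78 ± 0.32 in CONV, 6.82 ± 0.13 in GF, 6.78 ± 0.16 in UCC2003 and 6.88 ± 0.55 in TadA mutant (log2 units, SD, n = 4). CONV minus GF was -1.03 ± 0.22 log2 units (SE), a 2.05-fold lower level. CONV minus UCC2003 was -0.99 ± 0.22, and CONV minus TadA mutant was -1.09 ± 0.22. UCC2003 minus GF was -0.04 ± 0.22 and TadA mutant minus GF was 0.06 ± 0.22, both smaller than their standard errors. The authors' deposited table gives signed CONV folds of -2.03 over GF, -2.14 over TadA mutant and -1.95 over UCC2003, with adjusted p-values of 0.138, 0.120 and 0.118.

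With limma and a Benjamini-Hochberg adjusted p under 0.05, which is the call used throughout, Sprr1a and Casp14 passed in each comparison that involves CONV and in none of the other 3. The share of all clusters called was 1.89% in CONV against GF, 3.03% in CONV against UCC2003 and 1.4% in CONV against TadA mutant. It was 0.0214% in UCC2003 against GF, 0% in TadA mutant against GF and 0.00857% in UCC2003 against TadA mutant. Both genes were chosen from these contrasts, so nothing is read from their calls, and the comparisons share arrays. Groups did not overlap in 7% of all clusters in CONV against GF, 11.8% in CONV against UCC2003 and 9.63% in CONV against TadA mutant. With the replicate number as a block, the 3 Casp14 calls were lost (adjusted p = 0.0563, 0.0552 and 0.0530 against GF, UCC2003 and TadA mutant). The Casp14 calls also depended on single arrays: the call against GF was lost without GF replicate 1, 2 or 3 or CONV replicate 2, 3 or 4, that against UCC2003 without any 1 UCC2003 array or CONV replicate 2, 3 or 4, and that against TadA mutant without TadA mutant replicate 1, 3 or 4 or CONV replicate 2 or 3.

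TadA mutant replicate 2, the array with the highest Sprr1a level outside CONV, was also the 1 TadA mutant array with Cpa1 above 10. TadA mutant replicate 4, at 7.49, is counted among the arrays without these transcripts. Sprr1a was higher in CONV both among arrays with these transcripts and among the others. CONV minus GF was 2.95 log2 units among arrays with pancreatic transcripts (2 against 3) and 2.38 among the others (2 against 1). CONV minus UCC2003 was 3.30 and 2.61 (2 against 2 in each), and CONV minus TadA mutant was 2.00 (2 against 1) and 2.60 (2 against 3). For Casp14, CONV minus GF was -1.08 among arrays with pancreatic transcripts and -1.03 among the others, CONV minus UCC2003 was -1.06 and -0.93, and CONV minus TadA mutant was -0.42 and -1.27. The value of -0.42 sets 2 CONV arrays against TadA mutant replicate 2 alone. Without the 8 arrays, no Sprr1a or Casp14 comparison with CONV passed limma's test, with adjusted p = 0.229 for Sprr1a and 0.527 for Casp14 against GF.

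Sprr1a and Casp14 also varied in opposite directions inside the groups. Over the deviations of the 16 arrays from their group means, Pearson's r was -0.72 (permutation p = 0.0291, 0.0291 after Benjamini-Hochberg adjustment over 4 relations) and Spearman's rho was -0.63 (permutation p = 0.0323, adjusted 0.0323), with 100000 two-sided permutations within groups. TadA mutant replicate 2 had the highest Sprr1a and the lowest Casp14 deviation of all arrays. Without it and CONV replicate 2, the arrays farthest from the median Sprr1a deviation, r was -0.57 (permutation p = 0.0491). Both of these arrays held pancreatic transcripts, and their part in the correlation was not tested.

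**Figure D2:**
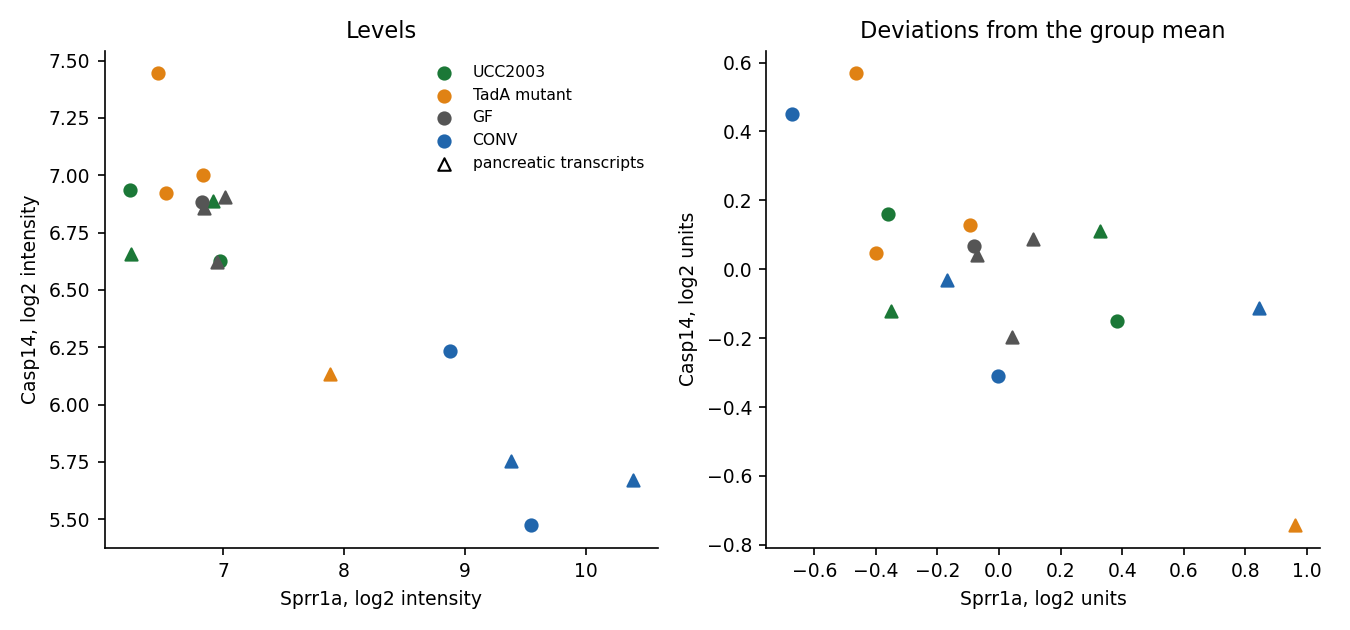
Casp14 against Sprr1a in each of the 16 arrays, as log2 intensities (left) and as deviations from the group mean in log2 units (right), coloured by group, with triangles for arrays with pancreatic transcripts. On the left the CONV arrays form the corner of high Sprr1a and low Casp14 and TadA mutant replicate 2, at 7.89 and 6.13, lies between them and the rest; on the right the points follow r = -0.72.

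The genes whose levels followed Sprr1a most closely over the 16 arrays, among 1766 named genes, were Cldn23, a claudin of tight junctions (r = 0.93), Slc13a2, a sodium-coupled dicarboxylate transporter (r = 0.93), St8sia5, a sialyltransferase (r = 0.92), Ces2e, a carboxylesterase (r = 0.91), and Slc51b, a subunit of the basolateral organic solute and bile acid transporter (r = 0.91). Their CONV minus GF differences were 1.06, 1.64, 1.57, 0.83 and 1.94 log2 units, all below that of Sprr1a. The group means enter these correlations. Over deviations from the group means they were 0.58 for Cldn23, 0.65 for Slc13a2, 0.09 for St8sia5, 0.70 for Ces2e and 0.20 for Slc51b.

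Casp14 was followed most closely by Best2, a bestrophin anion channel known from colonic goblet cells (r = 0.91), Rep15, a Rab15 effector protein (r = 0.88), Pcp4l1 (r = 0.85), Zfp871, a zinc finger protein (r = 0.83), and Gpr89, a Golgi pH regulator (r = 0.83). Best2 had a mean of 8.01 in GF and 7.09 in CONV, a difference of -0.92 log2 units, and Rep15 had a difference of -0.58. The within-group correlation with Casp14 was 0.76 for Best2 and 0.70 for Rep15. Best2 was also the gene most opposite to Sprr1a, with r = -0.97 over the arrays and -0.80 over deviations from the group means. All of these are descriptions over arrays that share their group structure.

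**Figure D3:**
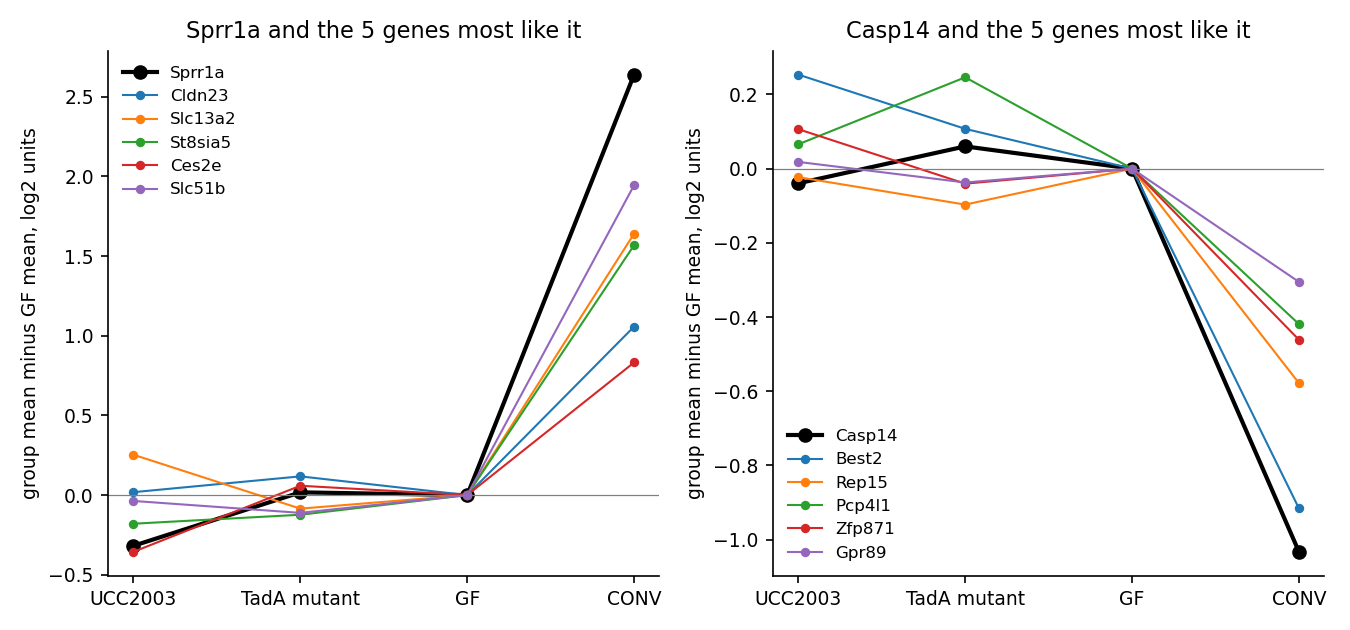
Group mean minus GF mean in log2 units (vertical axis) over the 4 groups for Sprr1a (left) and Casp14 (right), in black, and the 5 named genes with the highest correlation with each, in colour. Sprr1a has the highest CONV point of its panel at 2.64 and Casp14 the lowest of its panel at -1.03, with Best2 next at -0.92.

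Most of the other measured cornified envelope genes were dim, so that a lack of difference in them cannot be told from a lack of signal. Of 62 genes on the list, 11 besides Sprr1a and Casp14 had a named cluster in the value table, and 0 of these 11 passed limma's test in CONV against GF (0 at an unadjusted p under 0.05). The mean of 9 of the 11 lay below the lowest array median of 5.91 log2 units in every group, and 5 of them (Lce1m, Lor, Sprr2d, Sprr2e and Sprr2k) lay below 5 in every group. There were 7 of the 11 higher and 4 lower, with a median difference of 0.12 log2 units against 0.01 over all clusters. The 6 other Sprr genes had CONV minus GF differences between -0.23 ± 0.30 (Sprr4) and 0.23 ± 0.45 (Sprr2d). In RefSeq's gene order Sprr1a stands between Sprr3 and Sprr4 on chromosome 3, and the differences of these neighbours were 0.12 ± 0.22 and -0.23 ± 0.30. Loricrin, encoded by Lor and a main protein of the envelope, had a difference of -0.18 ± 0.27.

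In UCC2003 against GF, 8 of the 11 genes were lower and 0 passed the test, with 3 at an unadjusted p under 0.05. Sprr2k had the largest difference among them in CONV against UCC2003, 1.17 ± 0.31 log2 units (limma adjusted p = 0.0553), but its 4 group means lay between 3.70 and 4.87, where the signal was not shown to be above background. Lce1l, a late cornified envelope gene, had a UCC2003 minus GF difference of -0.50 ± 0.16 in the value table and -0.36 ± 0.12 in the gene-level table. In the gene-level table the list had 5 genes, Flg, Klk7, Kprp, Lce1l and Tchh, and 0 passed the test in any comparison. At an unadjusted p under 0.05 there were 5 in UCC2003 against GF and 0 in CONV against GF. That table holds only genes selected at a p under 0.05 over UCC2003, TadA mutant and GF. Low p-values between those groups are thus partly built in. CONV took no part in the selection, so these counts cannot be compared.

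**Figure D4:**
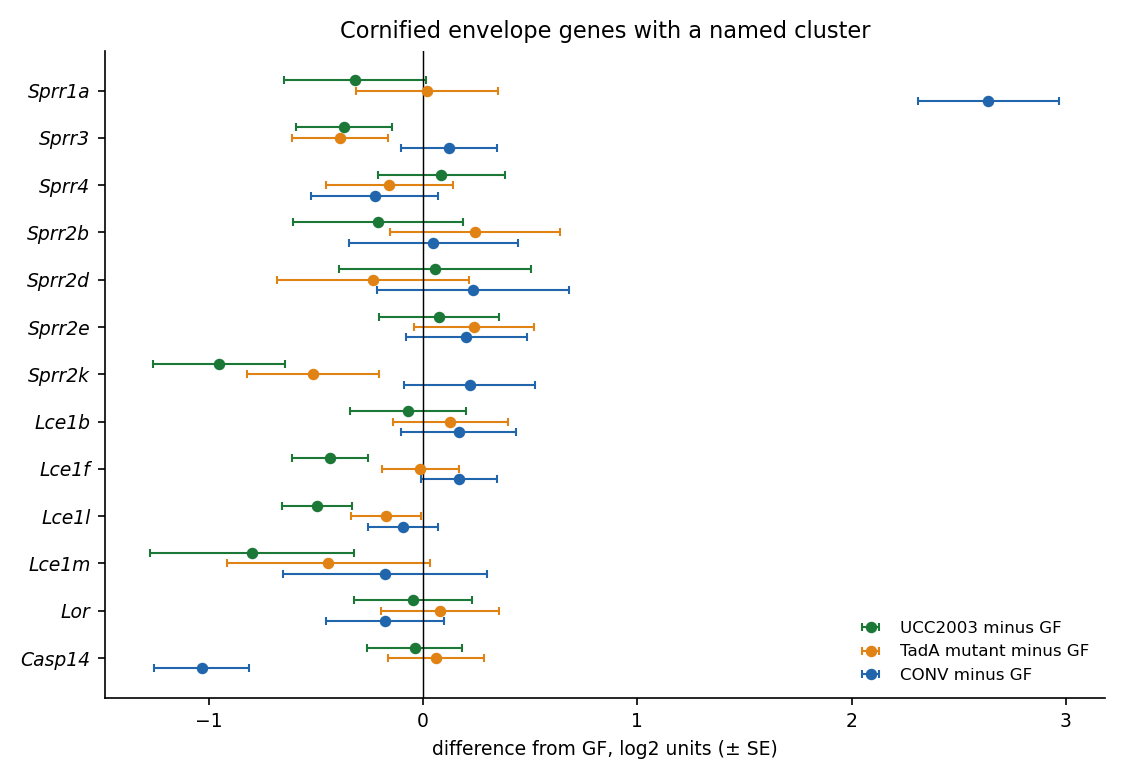
Difference from GF in log2 units (horizontal axis, points with ± SE) for Sprr1a, Casp14 and the 11 other cornified envelope genes with a named cluster, with UCC2003 green, TadA mutant orange and CONV blue. Sprr1a in CONV lies at 2.64 and Casp14 in CONV at -1.03, while the CONV points of the other genes, most of them dim, lie between -0.23 and 0.23.

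Squamous tissue was looked for beside these results, since both genes are known from skin. Of 32 squamous markers 4 had a named cluster (Lor, Ly6d, Perp and Sfn), and the squamous keratins on the list were not among them. Their mean level per array lay between 7.46 and 7.91 in CONV, above the 7.30 to 7.42 of GF, while UCC2003 spanned 7.22 to 7.58 and TadA mutant 7.33 to 7.47. The CONV minus GF differences were 0.52 for Sfn, 0.41 for Ly6d, 0.27 for Perp and -0.18 for Lor. None passed limma's test (2 of 4 at an unadjusted p under 0.05), and CONV and GF arrays overlapped for each. Flg, the 1 squamous marker of the gene-level table, had a difference of -0.10 ± 0.13. The higher CONV mean thus came from Sfn, Ly6d and Perp, while Lor and Flg were not higher. Neutrophil and macrophage markers (C1qa, C1qb, Elane, Lyz1 and S100a8, 5 of 22) had a mean of 6.56 to 7.45 in CONV and 6.10 to 6.56 in GF. The smooth muscle markers Cnn1, Lmod1 and Tpm2 had 8.17 to 8.49 in CONV, 8.36 to 8.86 in GF, 8.95 to 9.14 in UCC2003 and 8.64 to 9.16 in TadA mutant. Cnn1 and Tpm2 were lower in CONV than in UCC2003 (limma adjusted p = 0.00224 and 0.0132) and than in TadA mutant (limma adjusted p = 0.00278 and 0.0311). Among the colon epithelium markers, Krt20, a keratin of differentiated surface cells, was 0.38 ± 0.09 log2 units above GF in CONV and rose against TadA mutant by 0.49 ± 0.09 (limma adjusted p = 0.0168). Tff3, a goblet cell trefoil peptide, was 0.31 ± 0.10 below GF in CONV (limma adjusted p = 0.142), and the arrays of these groups overlapped. Its level fell by 0.41 ± 0.10 against UCC2003 (limma adjusted p = 0.0353). Tff3 thus had the direction of Casp14 and Best2, while Retnlb, a goblet cell gene of the gene-level table, went the other way. Its CONV minus GF difference was 4.36 ± 0.26. The part of any of these cells in the Sprr1a and Casp14 differences was not tested.

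The gasdermin C genes differed by far less and in another order of groups. Gsdmc2 and Gsdmc4 lie on the minus strand of chromosome 15, and in RefSeq's order Gsdmc, Gsdmc2, Gsdmc3 and Gsdmc4 are consecutive genes. These genes are near-identical copies, so probes may read more than 1 of them and the split between them is uncertain. Their table holds only genes selected at a p under 0.05 in a comparison of UCC2003, TadA mutant and GF, and the authors' deposited table gives p-values of 0.0317 for Gsdmc2, 0.0203 for Gsdmc4 and 0.0215 for Gsdmc. Its columns give the group but not the replicate.

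Gsdmc2 was highest in the TadA mutant group and lowest in CONV. Its 4 values were 10.63, 11.09, 10.74 and 10.68 log2 units in TadA mutant and 10.47, 10.45, 10.64 and 10.14 in GF. They were 10.47, 10.45, 10.22 and 10.65 in UCC2003, and 10.53, 10.03, 10.07 and 9.996 in CONV. The lowest TadA mutant value and the highest GF and UCC2003 values nearly met, and the groups overlapped by that margin. All CONV values lay below every TadA mutant value.

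The mean Gsdmc2 level was 10.78 ± 0.21 in TadA mutant, 10.45 ± 0.18 in UCC2003, 10.43 ± 0.21 for GF and 10.16 ± 0.25 for CONV (log2 units, SD, n = 4). TadA mutant minus GF was 0.36 ± 0.15 (SE), or 1.28-fold, and UCC2003 minus TadA mutant was -0.34 ± 0.15. UCC2003 minus GF was 0.02 ± 0.15. CONV minus TadA mutant was -0.63 ± 0.15, or 1.54-fold lower, CONV minus GF was -0.27 ± 0.15 and CONV minus UCC2003 was -0.29 ± 0.15.

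Gsdmc4 was likewise highest in the TadA mutant group, while its CONV level was near that of GF. Its values were 11.11, 11.54, 11.32 and 11.23 in TadA mutant and 11.09, 11.16, 11.29 and 10.70 in GF. They were 10.98, 10.93, 10.75 and 11.13 in UCC2003, and 11.13, 11.01, 10.64 and 11.29 in CONV. Every pair of groups overlapped, and a single low value stood in GF and another in CONV.

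The mean Gsdmc4 level was 11.30 ± 0.18 in TadA mutant, 11.06 ± 0.26 for GF, 11.02 ± 0.28 for CONV and 10.95 ± 0.16 in UCC2003 (log2 units, SD, n = 4). TadA mutant minus GF was 0.24 ± 0.15 (SE) and UCC2003 minus TadA mutant was -0.35 ± 0.15. CONV minus TadA mutant was -0.28 ± 0.15 and CONV minus GF was -0.05 ± 0.15. Single arrays decided part of this: TadA mutant minus GF was 0.12 without GF column 4 and 0.16 without TadA mutant column 2, and CONV minus TadA mutant was -0.16 without CONV column 3. Gsdmc, the 1 other gasdermin with a value (22 gasdermin names were searched), had means of 7.64 in TadA mutant, 7.38 for GF, 7.34 for CONV and 7.33 in UCC2003, with a TadA mutant minus GF difference of 0.26 ± 0.10. Its TadA mutant values overlapped with GF but not with UCC2003 or CONV.

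None of Gsdmc2, Gsdmc4 and Gsdmc passed limma's test in any of the 6 comparisons. Under quantile normalisation Gsdmc2 passed in CONV against TadA mutant, at -0.77 log2 units (adjusted p = 0.0263). The p-values of the gene-level table were adjusted over 35860 tests, the number that a pass rate of 0.05 needs to leave its 1793 genes, and the share of its genes called was 0% in TadA mutant against GF, 0.279% in UCC2003 against GF, 0.223% in UCC2003 against TadA mutant, 3.46% in CONV against GF, 4.13% in CONV against UCC2003 and 1.28% in CONV against TadA mutant. Groups did not overlap in 15.4% of its genes in CONV against TadA mutant and in 24.3% in UCC2003 against TadA mutant, which is the background for Gsdmc2 and Gsdmc.

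Markers of other cells also differed between these groups in the gene-level table. The mean of 7 smooth muscle markers (of 16 listed, among them Des and Myh11) lay between 8.31 and 8.93 in TadA mutant, 8.72 and 8.97 in UCC2003, 7.67 and 8.32 for GF, and 7.70 and 7.82 for CONV. Of these 7, 4 were called lower in CONV against UCC2003 and 2 in CONV against TadA mutant. The mean of 5 B cell markers (of 16 listed, among them Cd79a and Ms4a1) lay between 5.61 and 6.64 in TadA mutant, 5.81 and 6.65 in UCC2003, 5.10 and 5.49 for GF, and 6.11 and 6.76 for CONV. The mean of the macrophage markers C1qb, Cd163 and Csf1r (3 of the 22 neutrophil and macrophage markers) lay between 6.20 and 6.53 in TadA mutant, 6.41 and 6.47 in UCC2003, 5.97 and 6.20 for GF, and 6.44 and 6.65 for CONV. C1qb and Csf1r rose in CONV over GF (limma adjusted p = 0.0359 and 0.0471). Guca2a, the 1 colon epithelium marker of this table (of 24 listed), lay between 11.68 and 12.18 in TadA mutant and 12.34 and 12.53 in UCC2003. It lay between 11.94 and 12.30 for GF, and 11.54 and 12.41 for CONV. Its UCC2003 minus TadA mutant difference was 0.40 ± 0.16, opposite in sign to those of Gsdmc2 and Gsdmc4, and did not pass limma's test. The part of these cells in the gasdermin differences was not tested.

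The gasdermin C genes varied together inside the groups. Over deviations from the group means of the 16 arrays, Gsdmc2 and Gsdmc4 had r = 0.66 (permutation p = 0.0211, adjusted 0.0281) and rho = 0.64 (permutation p = 0.0198, adjusted 0.0264). Gsdmc2 and Gsdmc had r = 0.67 (permutation p = 0.00794, adjusted 0.0159) and rho = 0.69 (permutation p = 0.0087, adjusted 0.0174). Gsdmc4 and Gsdmc had r = 0.70 (permutation p = 0.002, adjusted 0.008) and rho = 0.76 (permutation p = 0.00194, adjusted 0.00776). Without the 2 arrays farthest from the median of the first gene, r was 0.65, 0.65 and 0.75. Probes may read more than 1 of these near-identical copies, so the correlations cannot be told from 1 signal read more than once. The amount of epithelium in each array may also enter them, and neither was tested.

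The difference between Gsdmc4 and Gsdmc2 within an array was compared as a description, with no test. It averaged 0.50 ± 0.02 log2 units for the UCC2003 arrays and 0.52 ± 0.05 for those of the TadA mutant (SD, n = 4). For GF it averaged 0.63 ± 0.06, and for CONV 0.86 ± 0.35. In CONV the 4 values were 0.59, 0.98, 0.56 and 1.29. The spread of CONV came from 2 arrays, whose Gsdmc2 level was low while Gsdmc4 was not. The other 2 CONV arrays lay inside the GF range of 0.56 to 0.71.

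**Figure D5:**
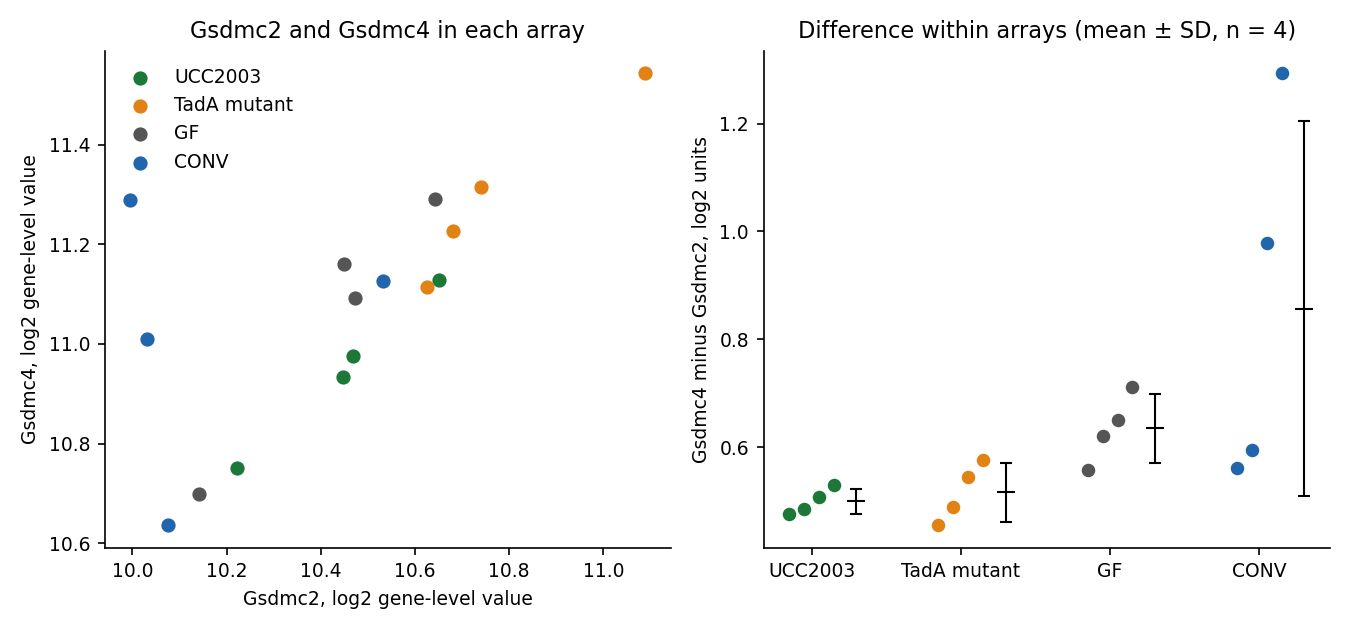
Left, Gsdmc4 against Gsdmc2 in log2 gene-level values for the 16 arrays, coloured by group; right, Gsdmc4 minus Gsdmc2 in log2 units for each array by group, with bars for the mean ± SD of 4 arrays. Most arrays lie along a line on the left, and 2 CONV arrays with differences of 0.98 and 1.29 stand apart from it.

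Among 1272 named genes of the gene-level table, those most like Gsdmc2 over the 16 arrays were Akap12, a scaffold for protein kinase A (r = 0.88), Pnrc2, a nuclear receptor coactivator (r = 0.79), Gsdmc (r = 0.79), Eml1, a microtubule-associated protein (r = 0.77), and Atp6v1a, a subunit of the vacuolar proton pump (r = 0.77). Akap12 had a TadA mutant minus GF difference of 0.32 log2 units. Those most like Gsdmc4 were Gsdmc (r = 0.80), Gpn1, a GTPase (r = 0.77), Dhx32, an RNA helicase (r = 0.72), Trmt10a, a tRNA methyltransferase (r = 0.71), and Btbd7 (r = 0.70). The genes of this table were selected on the same arrays.

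Genes of the type 2 response of gut epithelium were the nearest known context of gasdermin C. Of 3 such genes measured in the value table, 1 passed in each comparison with CONV, namely Il4ra, which encodes the interleukin-4 receptor alpha chain. It rose in CONV by 0.67 ± 0.15 log2 units over GF (limma adjusted p = 0.0398), from 6.38 ± 0.18 to 7.05 ± 0.37 (SD, n = 4), a call lost in 15 of 26 alternatives, among them leaving out UCC2003 replicate 1, 2 or 3, TadA mutant replicate 1, 2 or 4, any 1 GF array, or CONV replicate 2 or 4. Of 3 measured in the gene-level table, 2 passed in CONV against GF. The share of all clusters called in CONV was 1.89% against GF, 3.03% against UCC2003 and 1.4% against TadA mutant. In the gene-level table it was 3.46% in CONV against GF. The lists were written with earlier results of these data known, so the counts are a description. Retnlb, which encodes a goblet cell resistin-like protein, had means of 6.91 in GF, 7.69 in TadA mutant, 10.61 in UCC2003 and 11.27 in CONV. AI747448, listed by RefSeq as Clca4b, a member of the chloride channel accessory family, rose by 4.19 ± 0.21 in CONV over GF. Retnlb rose in UCC2003 over GF by 3.70 ± 0.26. Mcpt1, a mast cell protease of mucosa, had its highest mean in TadA mutant, as the gasdermin C genes did. Its TadA mutant minus GF difference was 0.63 ± 0.15 log2 units in the value table (limma adjusted p = 0.748, unadjusted 0.00083) and 0.43 ± 0.13 in the gene-level table (adjusted p = 0.939, unadjusted 0.0052). Mcpt1 was dim, with group means between 5.02 and 5.65 in the value table, below the lowest array median of 5.91. Il25, the third gene of the value table, had a TadA mutant minus GF difference of -0.20 ± 0.15. The same difference was -0.13 ± 0.15 for Il4ra, -0.34 ± 0.21 for AI747448 and 0.79 ± 0.26 for Retnlb, so the listed genes went in both directions. Whether a type 2 response has a part in the gasdermin differences was not tested.

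Besides Casp14, which is itself on the list, 3 caspase and inflammasome genes were measured in the value table (Cflar, Elane and Il1rn) and 4 in the gene-level table (Casp12, Il1rn, Nlrp1b and Ripk3). Of these, 0 passed limma's test in any of the 6 comparisons. At an unadjusted p under 0.05 there were 0 in each comparison in the value table and 1 to 3 in the gene-level table. The genes of the latter were selected on UCC2003, TadA mutant and GF, so low p-values between those groups are partly built in. Ripk3, a kinase of necroptosis, had a CONV minus GF difference of 0.91 ± 0.22, and Nlrp1b, an inflammasome sensor, a UCC2003 minus TadA mutant difference of -1.26 ± 0.28. Of 8 epithelial repair and stress genes in the value table, 1 passed in CONV against GF: Ly6a, a surface protein known from regenerating epithelium, rose by 1.28 ± 0.14 log2 units (limma adjusted p = 0.000158). Of the microbiota-responsive genes, Nox1, an epithelial oxidase, rose by 1.45 ± 0.23 in the value table (1 of 5 passed, adjusted p = 0.00353). Duox2, a hydrogen peroxide-producing oxidase, rose by 2.61 ± 0.23 in the gene-level table, where Retnlb is also on the list (2 of 5 passed). The share called in CONV against GF was 1.89% of all clusters and 3.46% of the gene-level table. These lists too were written with earlier results known, so the counts are a description. Without the arrays with pancreatic transcripts, 0 of the value table's pathway genes passed.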

How the data were processed

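The deposited log2 intensities of 23332 clusters are RMA values from Affymetrix Expression Console 1.1 (build mm9, per the submitters' processing notes). Partek is named there too, with no role given. The gene-level table holds log2 values deposited by the authors, with the p-value of their ANOVA. The authors' deposited comparison table gives each signed fold and its p-value. Gene symbols came from that table (1973 clusters with exactly 1 symbol) and were updated through RefSeq, with 102 renamed.

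Groups were compared in 1 limma fit over the 16 arrays (version 3.58.1, R 4.3.3), two-sided, with Benjamini-Hochberg adjustment over all clusters and a threshold of 0.05. Permutations used Python 3.11.15. The procedure was tested on simulated data.

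Where nothing says the replicates of a group came from separate litters or cages, p-values measure the spread between these arrays. Members and lists were chosen with earlier results of these data known. Named genes are the members, other gasdermins, up to 4 genes per pathway list by p, any pathway gene called, up to 3 leading markers per marker list and the 5 genes most correlated with each member. Sprr genes and squamous markers beyond that rule were named after their values were seen. Alternatives were other normalisations, filters and fits, single arrays left out and arrays without pancreatic transcripts.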

Additional observations from a re-analysis of the deposited data

Results flagged for a closer look

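The check covered 256 groups of 4 arrays for 64 gene entries, with C1qb, Il1rn and Mcpt1 entered from both tables. Of these groups, 10 had a highest or lowest value whose gap to the nearest, as a share of the group's range, was above Dixon's critical value. Chance flags about 1 in 20 groups. Of the members, Casp14 in GF replicate 4 read 6.6203 log2 units against 6.8563 for the nearest array, and Gsdmc2 in CONV column 1 read 10.5318 against 10.0745. Il4ra was low in TadA mutant replicate 3 at 6.0487. Cpa1 and Rnase1, both abundant in pancreas, were low in GF replicate 1 at 4.9582 and 4.857, the GF array without pancreatic transcripts. The macrophage gene C1qb was low in GF replicate 4 at 5.7919. In the gene-level table the macrophage gene Csf1r was high in TadA mutant column 4 at 6.8766 and low in GF column 4 at 5.8527, the chemokine gene Cxcl1 was high in GF column 4 at 8.7323, and the B cell gene Cd79a was high in CONV column 4 at 8.3258.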

How the results depend on the processing

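Of 576 values of 24 member differences under the alternatives, 0 reversed a called difference and 1 moved beyond the replicate spread: Gsdmc2 in CONV minus UCC2003 was -0.52 under quantile normalisation against -0.29. Leaving out 1 array gave Sprr1a CONV minus GF differences from 2.36 to 2.86 and Casp14 differences from -1.18 to -0.93. For TadA mutant minus GF it gave 0.26 to 0.43 for Gsdmc2 and 0.12 to 0.32 for Gsdmc4, and for CONV minus TadA mutant -0.75 to -0.52 and -0.38 to -0.16. The Sprr1a call against GF was lost in 1 of 26 alternatives, without pancreatic arrays, and the Casp14 call in 9 of 26, with adjusted p between 0.00423 and 0.527. Pathway genes called in the value table fell to 0 without pancreatic arrays in each comparison with CONV, from 3 against GF, 3 against UCC2003 and 2 against TadA mutant. The last was 1 with the compared groups only and 1 to 3 with 1 array left out, being 1 without TadA mutant replicate 1 or 3. In the gene-level table, CONV against UCC2003 had 2, and 4 with only genes of mean 5 or more. Fewer arrays or genes enter these fits. Sprr1a and Casp14 were chosen on these values, so how often their calls were kept or lost is a description and no support for them. Same-numbered arrays were no more alike than others: 24 same-numbered pairs had correlations of -0.31 to 0.21 (median -0.04), against a median of 0.03 for the other pairs. Other differences between arrays also enter these correlations, so they cannot exclude a pairing by litter, cage or batch. With the replicate number as a block, Sprr1a CONV minus GF stayed at 2.64 (adjusted p = 0.00223), Casp14 lost its call in all 3 comparisons with CONV (-1.03 and adjusted p = 0.0563 against GF), and 3, 3 and 2 pathway genes were called. Gene-level columns carry no replicate number, so no block or pancreatic split could be fitted for the gasdermins, and no member has a value in both tables.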
